A study of Mus musculus with 18 samples.

Results

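The genes described here encode 8 surface receptors of natural killer (NK) cells and related lymphocytes. They are Cd226 (the receptor DNAM-1), Cd96, Tigit, Cd160, Lag3, Pdcd1 (PD-1), Havcr2 (TIM-3) and Cd7, chosen by name from the 46078 genes of the count table. All 8 passed the filter on low counts, which left 14714 genes for testing. RNA of 200 sorted cells per library was sequenced from C57BL/6 mice of 8 weeks, with 3 libraries in each of 6 groups. Liver ILC1s, spleen ILC1s and liver NK cells, each from Ncr1-Cre; Rosa26-RARalpha403 mice (called RARa403), were set against the same cells from Ncr1-Cre mice (called control). ILC1s are tissue-resident type 1 innate lymphoid cells. They were gated as CD3-negative, NK1.1+ NKp46+ cells with CD49a, low CD49b and IL-7R, and NK cells as CD49a-negative and CD49b+. Both genotypes carry the Cre driven by Ncr1, the gene of NKp46, so recombination is aimed at cells that express NKp46. RARa403 is a truncated, dominant-negative retinoic acid receptor alpha, and the series asks what retinoic acid receptor activity does in these cells.

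DNAM-1, CD96 and TIGIT belong to one group of receptors that share the ligand CD155, the product of Pvr, on other cells. DNAM-1 activates NK cells and takes part in adhesion, whereas TIGIT inhibits and competes with DNAM-1 for the shared ligand. CD160, LAG-3, PD-1 and TIM-3 bind other ligands and are used as marks of activation or exhaustion in T cells, and CD7 is an immunoglobulin-family protein of T and NK cells.

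Library totals ran from 3452279 to 9038767 counts. Liver NK RARa403 library 1 stood apart: 2735 genes exceeded 50 CPM (counts scaled to a common library size) throughout the remaining 17, and 192 of these had no more than 3 counts in it. The same count was 0 for every other library. Cd160 was the one receptor gene among the 192, so results are given for all 18 libraries and for the 17 without that library. The genotype could be read in part: Gt(ROSA)26Sor, a noncoding RNA made from the Rosa26 locus into which the transgene was put, had at most 10 counts in RARa403 libraries 2 and 3 of every population, against 104 to 1260 counts in the 9 controls. In the liver ILC1 and spleen ILC1 libraries numbered 1, labelled RARa403, its level of 5.98 and 5.83 log2 CPM fell inside the controls' span of 4.51 to 7.25, while the liver NK library of that number had 0 counts. What is called RARa403 library 1 is therefore the library labelled so, and results are also given for libraries 2 and 3 only. Rara itself did not separate the genotypes, with 202 to 399 counts in RARa403 libraries 2 and 3 and 119 to 342 counts in controls. Liver NK RARa403 library 1, however, had 1764 counts of Rara, more than any other library, and the ILC1 libraries labelled RARa403 and numbered 1 had 259 in liver and 360 in spleen. ILC1 markers summed to between 1380 and 3160 CPM in the ILC1 groups and to at most 408 CPM in NK groups, and NK cell markers to at least 3670 CPM in NK groups. Liver ILC1 RARa403 library 1 had 1030 CPM of the NK markers, against 78.9 to 110 CPM in control liver ILC1s. The 11 T cell markers summed to between 1300 and 2070 CPM in ILC1 groups and 652 and 1480 CPM in NK groups, although the gates were CD3-negative. In RARa403 liver ILC1s 9 of the 11 were detected, all but Cd8a and Cd8b1. Cd3d, Cd3e and Cd3g averaged 5.01, 5.21 and 8.22 log2 CPM there and 4.13, 3.93 and 7.63 in control liver ILC1s. The other T cell markers except Cd6 averaged lower in RARa403 than in control liver ILC1s. In spleen ILC1s Cd3d, Cd3e and Cd3g averaged 5.40, 5.75 and 6.94 log2 CPM in RARa403 mice and 5.64, 5.99 and 7.31 in controls. In liver NK cells they averaged 1.915, −1.423 and −0.172 in RARa403 mice and 1.729, −1.26 and 1.058 in controls. Control liver ILC1s and both spleen ILC1 groups had counts of all 11. RARa403 liver NK cells had counts of 8 and control liver NK cells of 7, with Cd8a and Cd8b1 at 0 in both. The 5 B cell markers summed to between 318 and 2550 CPM in ILC1 groups and 32.2 and 360 CPM in NK groups. The T cell and B cell marker sums thus ran mostly higher in ILC1 than in NK libraries, each with some overlap. In the T cell list liver NK RARa403 library 1, at 1480 CPM, reached into the ILC1 span. Trbc1 of that list averaged 9.06 log2 CPM in control and 9.55 in RARa403 NK cells, and 9.51 to 9.94 in ILC1 groups. The part of either list in the ILC1 against NK comparison was not tested. Xist was high in RARa403 library 2 and control library 3 of each population, so these libraries and the others of their group differed in sex.

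Cd7 and Cd160 were the most abundant of the 8 transcripts in ILC1s. Of the 8 genes, 4 (Cd226, Cd96, Cd160 and Cd7) were at higher levels in every ILC1 library than in any NK library. For Cd96 the gap was narrow, 7.333 against 7.327 log2 CPM. The share of all tested genes that were apart in this way was not computed. Compared per kilobase of exon, median levels in the 12 ILC1 libraries were 1534 CPM per kb for Cd7, 321.9 for Cd160, 95.65 for Cd96 and 65.67 for Cd226. In the 6 NK libraries the medians were 441.9 CPM per kb for Cd7, 61.31 for Cd160, 50.2 for Cd96 and 16.73 for Cd226. The other 4 genes were rare. Tigit had a median of 5.72 CPM per kb in ILC1 libraries and 10.7 in NK libraries, and Lag3 3.35 in ILC1 libraries and 0.105 in NK libraries. Pdcd1 had counts in 6 of the 12 ILC1 libraries and 1 of the 6 NK libraries. Havcr2 had counts in 3 of the 12 ILC1 libraries and 2 of the 6 NK libraries.

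**Figure D1:**
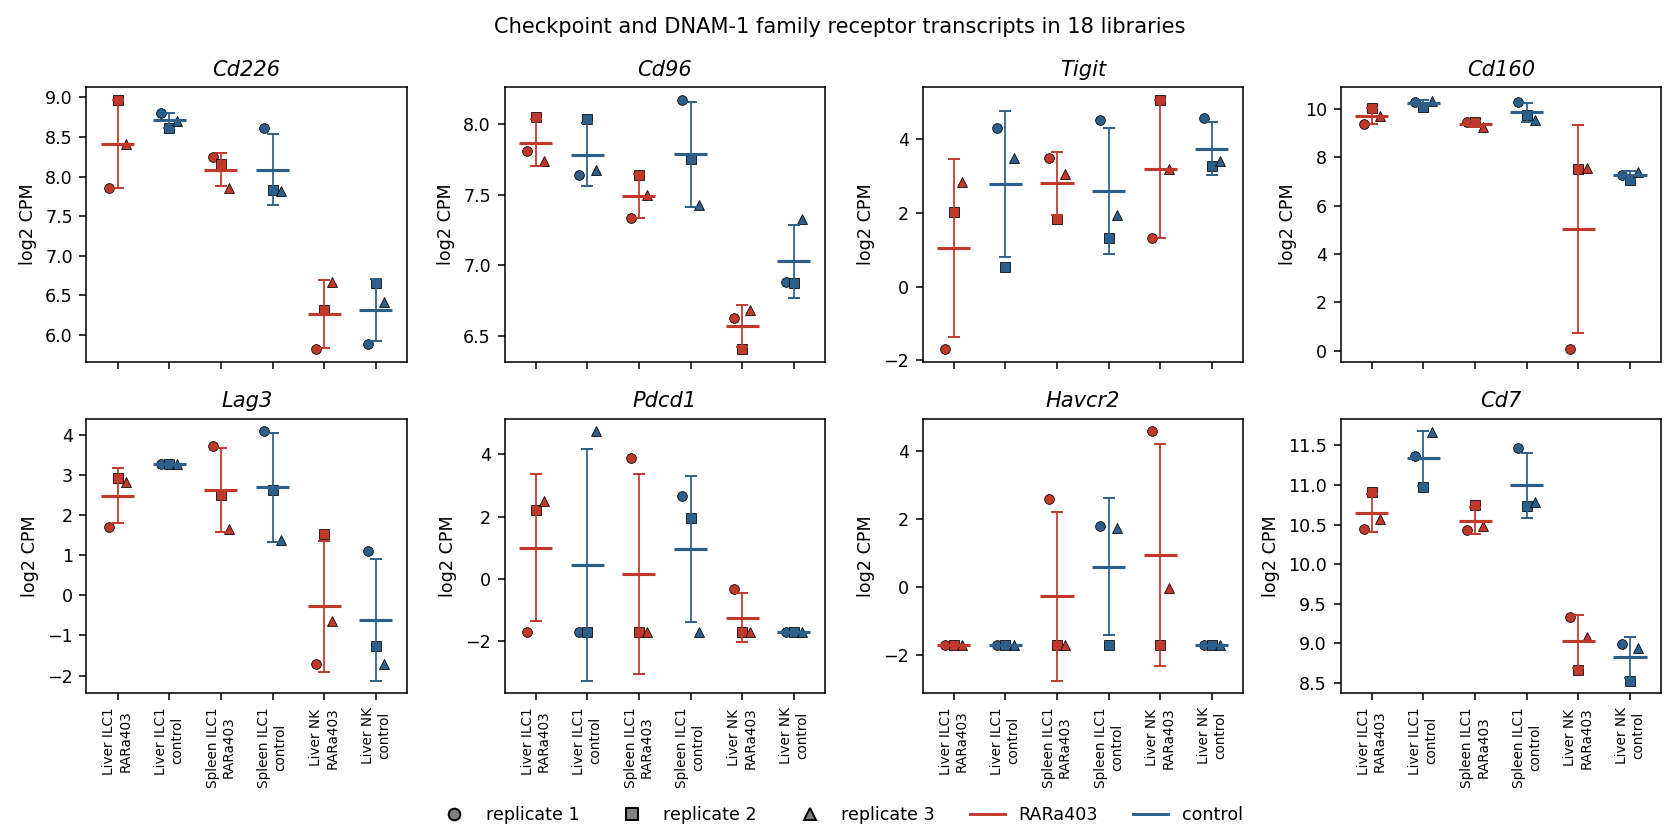
Level of each receptor transcript in log2 CPM (vertical axis) in the 6 groups; symbols are libraries by replicate number, horizontal lines are group means and error bars are the SD of 3 libraries. Cd226, Cd160 and Cd7 lie higher in the 4 ILC1 groups than in the 2 NK groups, and Cd160 falls to 0.06 log2 CPM in liver NK RARa403 replicate 1.

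ILC1s were compared with NK cells within each genotype, with edgeR's quasi-likelihood test and adjustment over all tested genes. In RARa403 mice, 3 of the 8 genes (Cd226, Cd96 and Cd7) were higher in liver ILC1s than in liver NK cells, where 0.347% of all tested genes were called higher. Spleen ILC1s of RARa403 mice were higher than liver NK cells in 2 of the 8 (Cd226 and Cd7; 0.231% of tested genes). In control mice, 2 of the 8, Cd226 and Cd7, were higher in liver ILC1s than in liver NK cells (0.428% of tested genes) and the same 2 were higher in spleen ILC1s than in liver NK cells (0.292%). None of the 8 was called lower at the same threshold, an adjusted p of 0.05. Of all tested genes, 0.0544% were lower in liver and 0.0068% in spleen ILC1s of RARa403 mice, and 0.177% in liver and 0.0204% in spleen ILC1s of control mice. The median log2 fold change over the genes was 1.89 in RARa403 liver and 2.45 in control liver, against 0.08 and 0.03 over all tested genes. These medians include Havcr2, and in control liver Pdcd1, although a group was at 0 counts and their fold change has no meaning there. Without liver NK RARa403 library 1, Cd160 joined the called genes in all 4 comparisons, and Cd226 narrowly missed in RARa403 spleen ILC1s (adjusted p = 0.0502 by edgeR). In that fit, 0.404% of tested genes were called higher in liver and 0.248% in spleen ILC1s of RARa403 mice, and 1.13% in liver and 0.749% in spleen ILC1s of control mice. Fitted on libraries 2 and 3 of every group, 4 of the 8 were called higher in RARa403 liver ILC1s (0.803% of tested genes) and 3 in RARa403 spleen ILC1s (0.303%). In the same fit, 3 were called higher in control liver ILC1s (0.831%) and 3 in control spleen ILC1s (0.324%). Counts out of 8 from this fit, here and below, include Havcr2, which did not pass its filter on low counts. No spleen NK cells were sequenced, so for spleen ILC1s the organ and the cell type cannot be told apart. In bulk RNA, a smaller share of expressing cells and less RNA per cell cannot be told apart either.

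**Figure D2:**
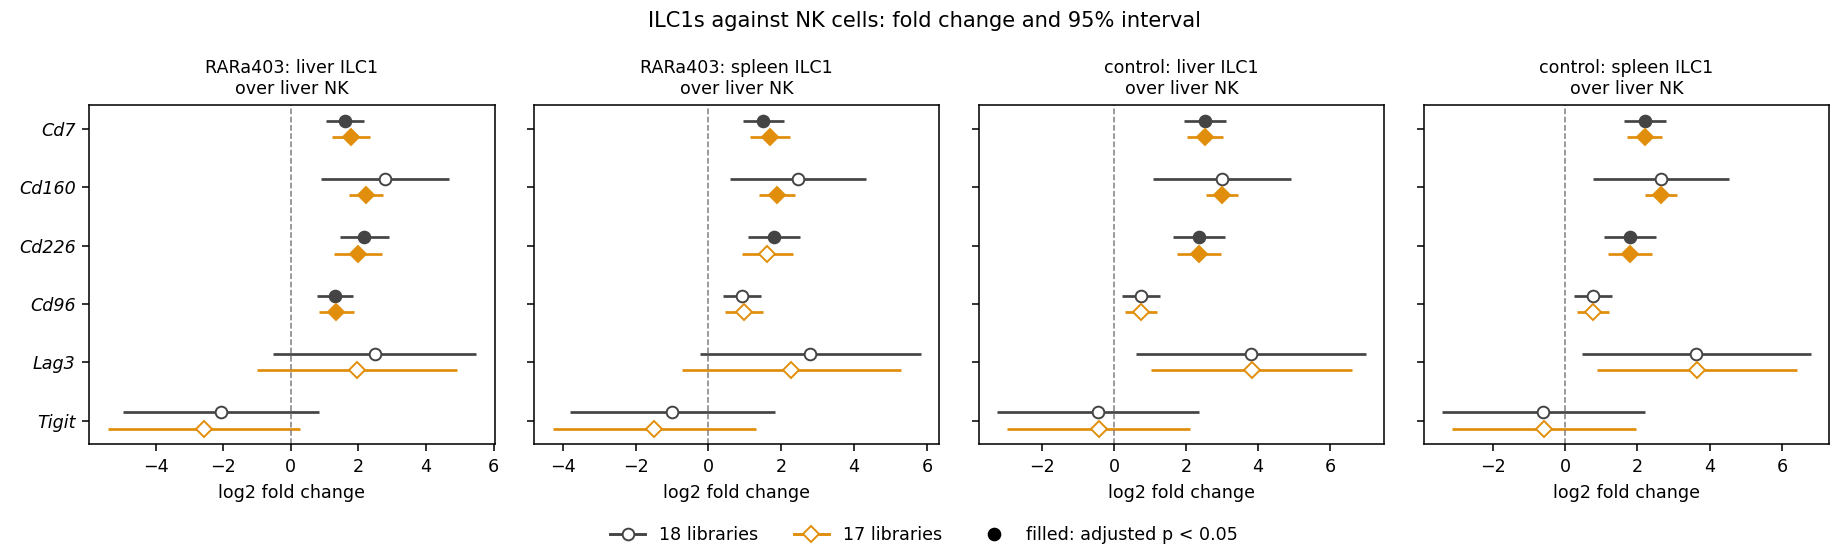
Log2 fold change of ILC1s over NK cells (horizontal axis) for 6 receptor genes in RARa403 and control mice, with 95% intervals from all 18 libraries (circles) and from 17 libraries (diamonds); filled symbols passed an adjusted p of 0.05. Cd7 and Cd226 lie to the right of 0 in all 4 panels, and the interval of Cd160 narrows in the 17 libraries.

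Cd226 encodes the activating receptor of the CD155-binding group (ENSMUSG00000034028, mm10 chromosome 18, 89176967 to 89272229, plus strand). Its level was 7.86, 8.97 and 8.41 log2 CPM in RARa403 liver ILC1s, against 5.81, 6.31 and 6.67 log2 CPM in RARa403 liver NK cells. Control liver ILC1s had 8.80, 8.61 and 8.71 log2 CPM, against 5.88, 6.65 and 6.41 log2 CPM in control liver NK cells. The ILC1 and NK libraries did not overlap in either genotype. The difference was 4.53-fold in RARa403 liver (log2 2.18, SE 0.34, adjusted p = 0.0124 by edgeR) and 5.15-fold in control liver (log2 2.36, SE 0.34, adjusted p = 0.0048). Spleen ILC1s had 8.24, 8.16 and 7.85 log2 CPM in RARa403 mice and 8.61, 7.83 and 7.82 in controls, all above every NK library. Over liver NK cells that was 3.47-fold in RARa403 mice (adjusted p = 0.0415 by edgeR) and 3.46-fold in controls (adjusted p = 0.0304).

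The control liver call of Cd226 passed whichever of the 6 libraries was left out, with edgeR's adjusted p between 0.015 and 0.0493. That of RARa403 liver ended without liver ILC1 RARa403 library 2 (adjusted p = 0.0567 by edgeR). In spleen the control call ended with any 1 of the 6 libraries left out (0.0504 to 0.245). The RARa403 spleen call ended without liver NK RARa403 library 1 (0.0502) or without spleen ILC1 RARa403 library 1, 2 or 3 (0.145, 0.129 and 0.0628), while the log2 fold change stayed between 1.62 and 2.02.

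Cd96 encodes a second receptor for CD155, in mice mostly described as inhibitory on NK cells (ENSMUSG00000022657, mm10 chromosome 16, 46035657 to 46120251, minus strand). RARa403 liver ILC1s had 7.81, 8.05 and 7.74 log2 CPM, against 6.63, 6.40 and 6.68 log2 CPM in RARa403 liver NK cells. The groups did not overlap, and the difference was 2.47-fold (log2 1.30, SE 0.25, adjusted p = 0.0319 by edgeR). This call ended without any of liver ILC1 RARa403 libraries 1, 2 and 3 (adjusted p = 0.0822, 0.195 and 0.107 by edgeR) and without liver NK RARa403 library 2 (0.0568). It also ended without the filter on low counts (0.104).

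In control mice Cd96 had 7.64, 8.04 and 7.68 log2 CPM in liver ILC1s, against 6.88, 6.88 and 7.33 log2 CPM in liver NK cells. These groups did not overlap either, but the 1.69-fold difference missed the threshold (log2 0.75, 95% interval 0.22 to 1.29, adjusted p = 0.34 by edgeR). By DESeq2 it passed with an adjusted p of 0.0423 (2.12% of tested genes called higher) and by limma-voom with 0.0272 (1.92%). Spleen ILC1s were 1.90-fold above liver NK cells in RARa403 mice (adjusted p = 0.166 by edgeR) and 1.71-fold in controls (0.422). DESeq2 called the RARa403 spleen difference, with an adjusted p of 0.0092 (2.03% of tested genes). Over all libraries, the lowest ILC1 value of Cd96 was 7.333 and the highest NK value 7.327 log2 CPM, so the cell types were only just apart.

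Tigit encodes the inhibitory receptor for the same ligand (ENSMUSG00000071552, mm10 chromosome 16, 43648867 to 43664146, minus strand). It had 0, 25 and 48 counts in RARa403 liver ILC1s, against 9, 298 and 53 counts in RARa403 liver NK cells. Control liver ILC1s had 142, 4 and 50 counts, against 150, 84 and 58 counts in control liver NK cells. Libraries of one group differed by more than the groups did. In RARa403 mice liver ILC1s over liver NK cells gave a log2 fold change of −2.07 with a 95% interval of −4.98 to 0.84 (adjusted p = 0.585 by edgeR). In controls it was −0.45 with an interval of −3.24 to 2.35 (adjusted p = 1 by edgeR). The control interval thus spans several-fold differences in either direction, and the RARa403 interval several-fold lower levels in ILC1s. Differences of these sizes were not detectable with these libraries.

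Cd160 encodes a membrane-anchored receptor that binds HVEM, the product of Tnfrsf14, and activates NK cells (ENSMUSG00000038304, mm10 chromosome 3, 96798763 to 96829351, minus strand). It had 4262, 7028 and 5975 counts in RARa403 liver ILC1s, against 3, 1623 and 1125 counts in RARa403 liver NK cells. Control liver ILC1s had 9248, 3821 and 6023 counts, against 1001, 1213 and 954 counts in control liver NK cells. Library 1 of the RARa403 NK cells had next to none, and the other 5 NK libraries lay between 7.08 and 7.56 log2 CPM, below all 12 ILC1 libraries, which lay between 9.24 and 10.35. With all 18 libraries the difference was 6.92-fold in RARa403 liver and 7.98-fold in control liver, with a wide SE of 0.89 and 0.90 on the log2 scale and adjusted p = 0.22 and 0.238 by edgeR. In the 17 libraries it was 4.68-fold in RARa403 liver (log2 2.23, SE 0.24, adjusted p = 0.000346 by edgeR) and 7.96-fold in control liver (log2 2.99, SE 0.21, adjusted p = 2.42e-06). In spleen ILC1s of the 17 libraries the log2 fold change over liver NK cells was 1.89 in RARa403 mice (adjusted p = 0.00152 by edgeR) and 2.65 in controls (1.22e-05). The wide SE in the control comparison, in which the aberrant library takes no part, comes from the estimate of spread that all groups share. Pdzk1, which overlaps Cd160 on the other strand, had at most 76 counts in any library.

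The sequence before the starts of Cd160 and Cd96 is shown because these are the called genes with entries in the RefSeq promoter table (GRCm38.p6); in all, 5 of the 8 genes matched, the others being Tigit, Pdcd1 and Havcr2. Each line is the 250 bases before a start, 5′ to 3′ on the gene's strand, and capitals mark the RUNX core TGTGGT, read on either strand.
Cd160, chr3:96829352-96829601, minus strand: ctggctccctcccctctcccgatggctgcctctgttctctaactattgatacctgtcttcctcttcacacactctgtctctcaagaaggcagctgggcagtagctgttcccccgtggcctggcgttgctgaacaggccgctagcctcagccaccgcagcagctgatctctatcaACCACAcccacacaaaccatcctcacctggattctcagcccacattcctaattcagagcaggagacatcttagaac
Cd160, chr3:96814522-96814771, minus strand: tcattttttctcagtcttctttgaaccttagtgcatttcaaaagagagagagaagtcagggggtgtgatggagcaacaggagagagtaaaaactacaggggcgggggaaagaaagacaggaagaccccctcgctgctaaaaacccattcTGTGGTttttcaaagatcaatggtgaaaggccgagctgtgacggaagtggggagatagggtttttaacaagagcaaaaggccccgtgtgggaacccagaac
Cd96, chr16:46120249-46120498, minus strand: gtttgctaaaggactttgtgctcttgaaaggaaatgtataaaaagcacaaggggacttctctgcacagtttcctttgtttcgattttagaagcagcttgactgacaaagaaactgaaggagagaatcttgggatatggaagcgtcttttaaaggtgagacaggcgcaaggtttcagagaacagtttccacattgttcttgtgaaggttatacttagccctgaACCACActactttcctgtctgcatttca
RUNX proteins are transcription factors of lymphocytes. The core stood 76 and 101 bases before the Cd160 starts and 28 bases before the Cd96 start, once in each window, and 14% of all 32851 promoter windows of that length held it. The T-box half-site AGGTGT, found in 11.8% of windows, and the nuclear receptor half-site AGGTCA, found in 14%, were not among the letters of these windows. Both strands were searched, no match overlapped another, and a match describes letters only.

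Cd7 was the most abundant of the receptor transcripts (ENSMUSG00000025163, mm10 chromosome 11, 121036747 to 121039418, minus strand). RARa403 liver ILC1s had 8966, 12840 and 10776 counts, against 2630, 3647 and 3242 counts in RARa403 liver NK cells. Control liver ILC1s had 19318, 7049 and 14964 counts, against 3280, 3310 and 2785 counts in control liver NK cells. No ILC1 library overlapped an NK library on the log2 CPM scale, where ILC1s lay between 10.43 and 11.66 and NK cells between 8.53 and 9.33. The difference was 3.05-fold in RARa403 liver (log2 1.61, SE 0.27, adjusted p = 0.0124 by edgeR) and 5.77-fold in control liver (log2 2.53, SE 0.27, adjusted p = 0.00061). Spleen ILC1s were above liver NK cells by 2.84-fold in RARa403 mice (adjusted p = 0.0272 by edgeR) and by 4.61-fold in controls (0.00324).

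Both control calls of Cd7 passed whichever library of the groups compared was left out, with edgeR's adjusted p of 0.00693 at most in liver and 0.0265 at most in spleen. The RARa403 liver call ended without liver ILC1 RARa403 library 2 (adjusted p = 0.0785 by edgeR). The RARa403 spleen call ended without spleen ILC1 RARa403 library 1, 2 or 3 (0.0543, 0.116 and 0.058). Gm11775, a gene on the strand opposite to Cd7, had at most 81 counts.

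The plot of Cd160 against Cd7 sets the 2 abundant genes side by side. Over the 17 libraries Pearson's r between their log2 CPM was 0.99, and within the 12 ILC1 libraries it was 0.92. Cd226 and Cd160 had r = 0.83 within the ILC1 libraries, and Cd226 and Cd96 r = 0.52. These values describe libraries that share cell types and scaling, and carry no test. Over all 18 libraries r between Cd160 and Cd7 was 0.65.

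**Figure D3:**
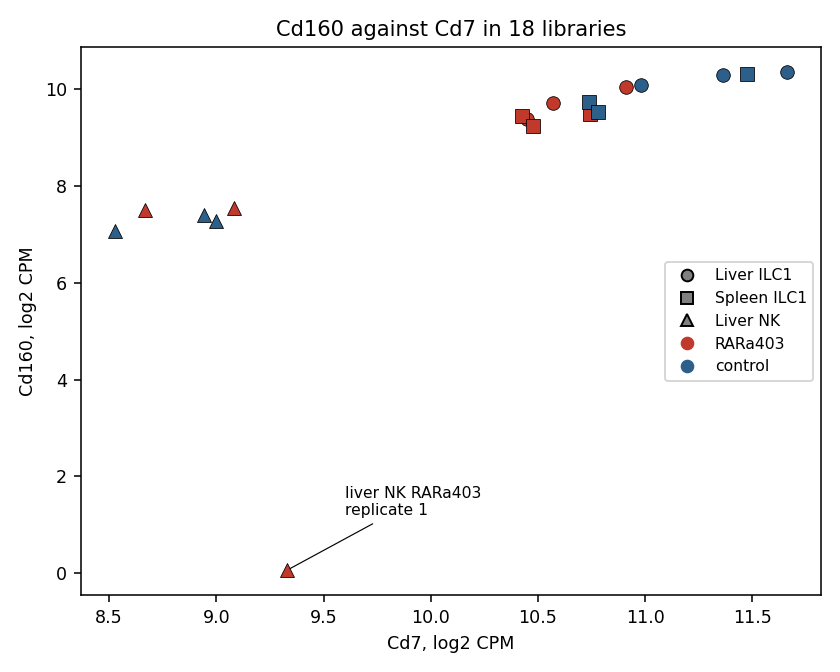
Cd160 (vertical axis) against Cd7 (horizontal axis), both in log2 CPM, in 18 libraries; shape gives the cell population and colour the genotype. The ILC1 libraries lie above 9.2 for Cd160 and 10.4 for Cd7, and liver NK RARa403 replicate 1 lies at 0.06 for Cd160 with 9.33 for Cd7.

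Lag3, whose product binds MHC class II and inhibits T cells, was low but present in all ILC1 libraries (ENSMUSG00000030124, mm10 chromosome 6, 124904361 to 124911705, minus strand). It had 19, 49 and 48 counts in RARa403 liver ILC1s, against 0, 23 and 2 counts in RARa403 liver NK cells. Control liver ILC1s had 69, 33 and 43 counts, against 12, 1 and 0 counts in control liver NK cells. ILC1 and NK groups did not overlap in either genotype. The log2 fold change was 2.49 in RARa403 liver (95% interval −0.51 to 5.49, adjusted p = 0.506 by edgeR) and 3.80 in control liver (0.61 to 6.99, adjusted p = 0.513). The control liver difference passed by limma-voom, with an adjusted p of 0.0111.

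Counting groups that do not overlap, Cd226, Cd96, Cd160, Lag3 and Cd7 were higher in ILC1s in each of the 4 comparisons. That is 5 of the 8 genes, against 7.58% of tested genes in RARa403 liver, 6.97% in RARa403 spleen, 8.71% in control liver and 8.99% in control spleen.

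Pdcd1 (ENSMUSG00000026285, mm10 chromosome 1, 94038305 to 94052553, minus strand) encodes PD-1, the inhibitory receptor for PD-L1 and PD-L2. It had 0, 29 and 38 counts in RARa403 liver ILC1s, against 2, 0 and 0 counts in RARa403 liver NK cells, and 0, 0 and 122 counts in control liver ILC1s, against 0 in all 3 control liver NK libraries. Spleen ILC1s had 93, 0 and 0 counts in RARa403 mice and 50, 26 and 0 counts in controls. Havcr2 (ENSMUSG00000020399, mm10 chromosome 11, 46454935 to 46481255, plus strand) encodes TIM-3, a receptor for galectin-9 and CEACAM1. It was at 0 counts in all 6 liver ILC1 libraries and had 96, 0 and 4 counts in RARa403 liver NK cells, against 0 in all 3 control liver NK libraries. Spleen ILC1s had 37, 0 and 0 counts of Havcr2 in RARa403 mice and 26, 0 and 17 counts in controls. A count of 0 allowed up to between 0.334 and 0.86 CPM per library, by counting error only, and the libraries hold too few molecules of these 2 genes for a fold change.

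RARa403 cells were compared with control cells of the same population, the comparison on which the series rests. None of the 8 genes passed in liver ILC1s, spleen ILC1s or liver NK cells, nor in the mean effect over the 3, by edgeR with 18 or 17 libraries. Of all tested genes, 0% passed in the 18-library fits, and in the 17 libraries 0.00604% passed in liver NK cells and 0.0483% in the mean effect. At an unadjusted p of 0.05, edgeR gave Cd7 of the 8 genes in liver ILC1s (2.94% of tested genes), none in spleen ILC1s (2.89%), Havcr2 in liver NK cells (9.64%) and Cd7 in the mean effect (6.33%). Havcr2 rested on 96 counts in liver NK RARa403 library 1, and without that library its unadjusted p was 0.172. At the same limit the 17 libraries gave Cd160 and Cd7 in liver ILC1s (4.7% of tested genes), in spleen ILC1s (5.01%) and in the mean effect (6.6%), and Cd96 in liver NK cells (3.25%). Libraries 2 and 3 only gave Cd7 in liver ILC1s (3.77%), none in spleen ILC1s (4.32%), Cd96 and Lag3 in liver NK cells (5.68%) and none in the mean effect (6.83%). By limma-voom 0 of the 8 passed in each of these comparisons. By DESeq2 0 passed except Pdcd1 in liver NK cells, on 2, 0 and 0 counts in RARa403 cells and 0 in each control library (1.27% of tested genes called).

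**Figure D4:**
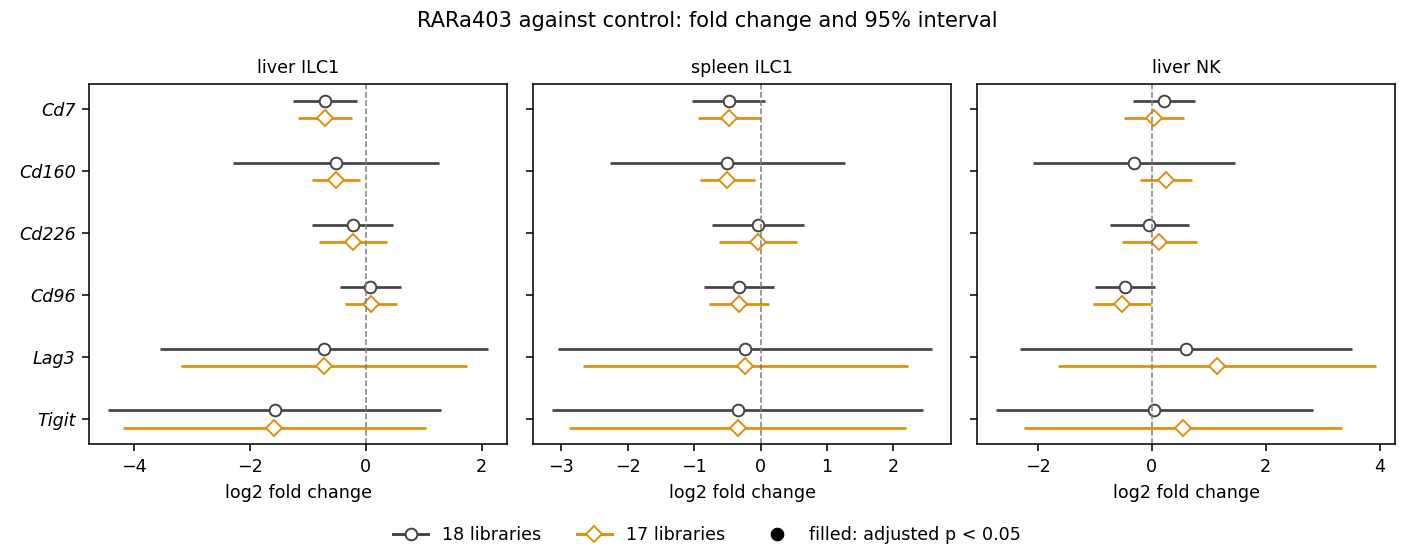
Log2 fold change of RARa403 over control cells (horizontal axis) for 6 receptor genes in liver ILC1s, spleen ILC1s and liver NK cells, with 95% intervals from all 18 libraries (circles) and from 17 libraries (diamonds). No symbol is filled, since no gene passed an adjusted p of 0.05; Cd7 and Cd160 lie left of 0 in both ILC1 populations.

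With 18 libraries Cd7 had the smallest p of the 8 genes in both ILC1 populations, while in the 17 libraries Cd160 had it in spleen. In liver ILC1s it was at 10.45, 10.91 and 10.57 log2 CPM in RARa403 cells, against 11.36, 10.98 and 11.66 log2 CPM in control cells. Every RARa403 library lay below every control library. The fold change was 0.613 (log2 −0.71, SE 0.26, 95% interval −1.26 to −0.15), with an unadjusted p of 0.0155 and adjusted p = 1 by edgeR. In spleen ILC1s Cd7 was at 10.43, 10.75 and 10.48 log2 CPM in RARa403 cells, against 11.47, 10.74 and 10.78 log2 CPM in control cells, and these groups overlapped (log2 fold change −0.48, 95% interval −1.03 to 0.07, adjusted p = 1 by edgeR). In liver NK cells it averaged 9.03 ± 0.33 log2 CPM in RARa403 cells and 8.82 ± 0.26 log2 CPM in control cells (SD, n = 3 each; log2 fold change 0.22, adjusted p = 0.854 by edgeR). The mean effect over the 3 populations was −0.32 (SE 0.15, unadjusted p = 0.0462, adjusted p = 0.772 by edgeR).

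Cd160 in liver ILC1s was at 9.38, 10.04 and 9.72 log2 CPM in RARa403 cells, against 10.30, 10.10 and 10.35 log2 CPM in control cells. In spleen ILC1s it was at 9.46, 9.48 and 9.24 log2 CPM in RARa403 cells, against 10.30, 9.74 and 9.54 log2 CPM in control cells. RARa403 libraries lay below all control libraries in both organs. With 18 libraries the log2 fold changes were −0.52 in liver and −0.50 in spleen, with SE 0.84 each and unadjusted p of 0.546 and 0.555 by edgeR. In the 17 libraries they were −0.51 and −0.50, with SE 0.20 each. Their unadjusted p there were 0.0182 and 0.0199, and adjusted p = 0.857 and 0.887 by edgeR. In liver NK cells, where library 1 of the RARa403 cells had 3 counts, the 17 libraries gave 7.50 and 7.56 log2 CPM in RARa403 cells, against 7.29, 7.08 and 7.40 log2 CPM in control cells (log2 fold change 0.25, SE 0.22, adjusted p = 1 by edgeR).

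Lag3 in liver ILC1s was at 1.71, 2.94 and 2.82 log2 CPM in RARa403 cells, against 3.28, 3.29 and 3.27 log2 CPM in control cells, also without overlap (log2 fold change −0.72, 95% interval −3.56 to 2.12, adjusted p = 1 by edgeR). In all, 3 of the 8 genes, Cd160, Lag3 and Cd7, were lower without overlap in RARa403 liver ILC1s, against 4.43% of tested genes. In spleen ILC1s it was 1 of 8, Cd160, against 4.87%. In liver NK cells it was Cd96 alone, 1 of 8 against 4.72%, at 6.63, 6.40 and 6.68 log2 CPM in RARa403 cells and 6.88, 6.88 and 7.33 log2 CPM in control cells (log2 fold change −0.47, SE 0.25, adjusted p = 0.561 by edgeR).

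Cd226 did not separate the genotypes in any population. Its log2 fold change for RARa403 over control was −0.23 in liver ILC1s (95% interval −0.92 to 0.46), −0.04 in spleen ILC1s (−0.73 to 0.65) and −0.04 in liver NK cells (−0.74 to 0.65), with adjusted p = 1 by edgeR in each. Changes within these intervals were not detectable with these libraries. Tigit was at −1.57 in liver ILC1s, −0.35 in spleen ILC1s and 0.05 in liver NK cells on the same scale, with intervals several units wide.

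The sizes differed between library 1 and libraries 2 and 3, which carry different opening numbers in the submitters' sample codes. In liver ILC1s, the RARa403 minus control difference in log2 CPM was −0.92 for Cd7, −0.92 for Cd160, −1.57 for Lag3 and −0.95 for Cd226 in library 1. In libraries 2 and 3 the same differences were −0.58 for Cd7, −0.34 for Cd160, −0.40 for Lag3 and 0.03 for Cd226. Spleen ILC1s had −1.04 for Cd7 and −0.85 for Cd160 in library 1, and −0.15 for Cd7 and −0.28 for Cd160 in libraries 2 and 3. Library 1 of the RARa403 liver ILC1s was also the one with 1030 CPM of NK markers, where libraries 2 and 3 had 138 and 148 CPM, and with Gt(ROSA)26Sor in the control range. NK markers in spleen ILC1s were at 317, 401 and 865 CPM in RARa403 libraries 1, 2 and 3 and at 132, 844 and 433 CPM in control libraries 1, 2 and 3. The part of these in the result was not tested. Fitted on libraries 2 and 3 only, Cd7 in liver ILC1s had a log2 fold change of −0.62 (unadjusted p = 0.0295, adjusted p = 1 by edgeR) and Cd160 −0.34 (unadjusted p = 0.0834, adjusted p = 1). In spleen ILC1s the same fit gave −0.15 for Cd7 and −0.29 for Cd160, and in liver NK cells −0.60 for Cd96 (unadjusted p = 0.0292, adjusted p = 0.879 by edgeR). Lag3 in liver NK cells was at 4.16 in that fit (unadjusted p = 0.015, adjusted p = 0.835 by edgeR), on 23 and 2 counts in RARa403 cells and 1 and 0 counts in control cells.

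The RARa403 effect was compared between populations as a difference of differences. None of the 8 genes passed between liver ILC1s and liver NK cells (0% of tested genes, and 0% in the 17 libraries), and 1 had an unadjusted p under 0.05 (6.2% of tested genes). That gene was Cd7, with an effect lower in liver ILC1s than in liver NK cells by a log2 value of −0.92 (SE 0.37, adjusted p = 0.798 by edgeR). For Cd160 in the 17 libraries it was −0.77 (SE 0.29, unadjusted p = 0.018, adjusted p = 1 by edgeR), and Cd160 and Cd7 were the 2 of 8 with an unadjusted p under 0.05 there (4.41% of tested genes). In libraries 2 and 3 only, these were Cd160 (−0.60) and Lag3 (−4.57), 2 of 8 against 4.71%. Between spleen and liver ILC1s, none of the 8 passed (0%) and 0 had an unadjusted p under 0.05 with 18 libraries (2.7%), 17 libraries (5.25%) or libraries 2 and 3 (3.61%). DESeq2 and limma-voom called 0 of the 8 in both comparisons.

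Spleen and liver ILC1s were also compared within a genotype. By edgeR none of the 8 genes passed in RARa403 or control mice (0% of tested genes in each) and 0 had an unadjusted p under 0.05, against 2.85% of tested genes in RARa403 mice and 3.18% in controls. In the 17 libraries it was also 0, against 4.84% in RARa403 mice and 4.88% in controls. In libraries 2 and 3 only, 2 of the 8 had an unadjusted p under 0.05 in RARa403 mice (5.41%), both lower in spleen. Cd226 had a log2 fold change of −0.69 (unadjusted p = 0.0101, adjusted p = 0.771 by edgeR) and Cd160 of −0.51 (unadjusted p = 0.0168, adjusted p = 0.852). In controls 3 of the 8 did (6.72%), also lower in spleen. They were Cd226 at −0.82, Cd160 at −0.57 and Cd7 at −0.59, with unadjusted p of 0.0037, 0.00963 and 0.0359 and adjusted p = 0.486, 0.594 and 0.706 by edgeR. DESeq2 and limma-voom also called 0. Cd226 in control ILC1s was lower without overlap in spleen, at 8.61, 7.83 and 7.82 log2 CPM, against 8.80, 8.61 and 8.71 log2 CPM in liver (log2 fold change −0.57, SE 0.33, adjusted p = 1 by edgeR), 1 of 8 against 4.15% of tested genes. Cd96 in RARa403 ILC1s was lower without overlap in spleen, at 7.33, 7.64 and 7.50 log2 CPM, against 7.81, 8.05 and 7.74 log2 CPM in liver (log2 fold change −0.38, SE 0.25, adjusted p = 1), 1 of 8 against 4.72%.

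Genes around these receptors were followed in 4 lists. Of 16 ligand genes 9 could be tested, and by edgeR none passed in any comparison with 18 libraries. In the 17 libraries Cd274, the gene of the PD-1 ligand PD-L1, was higher in control liver ILC1s than in control liver NK cells (log2 fold change 1.62, SE 0.28, adjusted p = 0.00596 by edgeR). It was higher in control spleen ILC1s as well (1.29, adjusted p = 0.0382). Cd274 had 419, 581 and 519 counts in RARa403 liver ILC1s and 1, 374 and 393 counts in RARa403 liver NK cells, so it shared the gap of liver NK RARa403 library 1 with Cd160. Pvr, which encodes CD155, did not pass between genotypes in liver ILC1s (1.06, SE 1.06, adjusted p = 1 by edgeR).

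Of 14 other inhibitory or nectin-family receptors, 13 were tested. In RARa403 liver ILC1s 2 were higher than in RARa403 liver NK cells: Vsir, the gene of the inhibitory receptor VISTA (log2 fold change 1.64, SE 0.28, adjusted p = 0.014 by edgeR), and Cd200r1, an inhibitory receptor of myeloid and lymphoid cells. Cd200r1 averaged 6.34 log2 CPM in those ILC1s and was at 0 counts in the NK cells (adjusted p = 0.021 by edgeR). In control liver 1 of the 13, Cd200r1, was above NK cells in ILC1s (log2 7.19, SE 1.42; edgeR adjusted p = 0.0363). None of the 13 was called between spleen ILC1s and liver NK cells of either genotype with 18 libraries. In the 17 libraries 3 were higher in control liver ILC1s than in NK cells (Cd200r1, Vsir and Klrc1), and 1, Klrg1, a receptor of mature NK cells, was lower (log2 fold change −4.25, SE 0.71, adjusted p = 0.00412 by edgeR). The same 4 were called in control spleen ILC1s against liver NK cells, with Cd200r1 at 6.32 (adjusted p = 0.017 by edgeR), Vsir at 0.98 (0.0103), Klrc1 at 1.01 (0.0485) and Klrg1 at −3.66 (0.0136). None of the 13 was called between genotypes in any population, and Vsir, with one of the smallest p, was at −0.61 in spleen ILC1s (adjusted p = 1 by edgeR) and −0.65 in liver NK cells (0.477).

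Of 16 genes that act in signalling downstream of the receptors, the 1 called with 18 libraries was Plcg1, the gene of phospholipase C gamma 1. It had 227, 557 and 457 counts in RARa403 liver ILC1s, against 1, 0 and 0 counts in RARa403 liver NK cells (adjusted p = 0.000124 by edgeR). Spleen ILC1s of RARa403 mice had 102, 73 and 134 counts (adjusted p = 0.000956 against the NK cells). In control mice it had 462, 146 and 264 counts in liver ILC1s, against 17, 43 and 21 counts in liver NK cells (log2 fold change 3.85, SE 0.62, adjusted p = 0.0113 by edgeR). Control spleen ILC1s had 304, 107 and 170 counts and passed against liver NK cells in the 17 libraries (adjusted p = 0.00541 by edgeR) but not in the 18 (0.0543). Prkcq, the gene of protein kinase C theta, was lower in control liver ILC1s than in NK cells in the 17 libraries (log2 fold change −1.08, adjusted p = 0.0302 by edgeR). Between genotypes, liver NK cells had 1, 0 and 0 counts of Plcg1 in RARa403 mice and 17, 43 and 21 counts in control mice. With 18 libraries that difference missed the threshold (adjusted p = 0.0788 by edgeR), and in the 17 libraries it passed (adjusted p = 0.0253), the 1 gene of 16565 tested to do so in that comparison. The mean RARa403 effect on Plcg1 passed in the 17 libraries (adjusted p = 0.0174 by edgeR) and not in the 18 (0.268). Its effect in liver ILC1s minus that in liver NK cells had adjusted p = 0.0692 by edgeR in the 17 libraries.

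Of 15 transcription factors tied to checkpoint receptor genes, Eomes was the 1 called with 18 libraries, lower in control liver ILC1s than in control liver NK cells (log2 fold change −5.42, SE 1.06, adjusted p = 0.0277 by edgeR). Eomes is itself on the NK marker list. In the 17 libraries Ikzf2, the gene of Helios, and Tox were higher in control liver ILC1s than in NK cells (log2 fold changes 1.94 and 1.69, adjusted p = 0.00227 and 0.013 by edgeR), and Eomes and Prdm1 lower. In control spleen ILC1s Ikzf2 was higher (1.92, adjusted p = 0.00385 by edgeR) and Prdm1 lower (0.0226) than in liver NK cells. Ikzf2 also passed in the 17 libraries for RARa403 ILC1s over NK cells, in liver (2.31, adjusted p = 0.00547 by edgeR) and spleen (2.05, 0.0191). None of the 15 passed between genotypes, and the smallest p in liver ILC1s were those of Eomes (2.38, SE 0.94) and Tcf7 (1.06, SE 0.47), with adjusted p = 1 for both by edgeR.

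Likeness was measured as Pearson's r of log2 CPM over the 17 libraries among 8388 genes, as a description of libraries that share cell types and scaling. Genes most like Cd226 were Itm2c (r = 0.97), Cd160 (0.96) and Lpar6 (0.96). Most like Cd96 were Gimap3 (0.89), Plcg1 (0.89) and Traf3ip2 (0.89). Cd160 was most like Tcrg-C4 (0.99), P2rx7 (0.99) and Cd7 (0.99), and Cd7 most like Cd160 (0.99), Zfp683 (0.97) and Itm2c (0.97). Zfp683 is on the ILC1 marker list and Tcrg-C4 on the gamma-delta T cell list. The 4 genes of the latter summed to 430 to 1000 CPM in ILC1 groups and 112 to 177 CPM in NK groups. Of these, Tcrg-C1, Tcrg-C2 and Tcrg-C4 averaged higher in every ILC1 group than in either NK group. Trdc, however, averaged lower in ILC1s than in NK cells of the same genotype. It was at 5.947 and 6.634 log2 CPM in control liver and spleen ILC1s and 7.004 in control NK cells. In RARa403 mice Trdc was at 7.072 and 7.132 in liver and spleen ILC1s and 7.284 in NK cells.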

How the data were processed

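RNA from sorted cells, 200 for each library, was copied and amplified by SMART-seq HT, per the labels' protocols. Reads were processed with fastp 0.23.0, HISAT2 2.1.0 and featureCounts of Subread 1.6.5 on mm10, per the submitters' processing notes, and the authors deposited raw counts per gene. The sources used here do not give the annotation release, the strand setting or the treatment of multi-mapping reads. Gene positions are from GENCODE M21 (GRCm38).

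Genes were filtered with filterByExpr at a minimum count of 10, scaled by TMM and tested with edgeR 4.0.16 in R 4.3.3. The fit had a mean for each of 6 groups over 18 libraries, with Benjamini-Hochberg adjustment over 14714 genes. The fit without liver NK RARa403 library 1 tested 16565 genes. A prior count of 2 was used for log2 CPM. Alternatives were DESeq2 1.42.0, limma-voom (limma 3.58.1), RLE factors, no filter, subsets of libraries, and terms for replicate number and for the opening number of the sample code. The test was tried on simulated data.

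Libraries totalled 3452279 to 9038767 counts. The labels do not tie libraries to animals, so p-values measure the spread between libraries, which may be technical. The 8 genes are named throughout, chosen, like the gene lists, with earlier results of these data known. From each list, at most 4 called genes are named in order of p, and at most 2 where none was called. Likeness names the 3 genes with the highest r among those averaging 3 log2 CPM or more.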

Additional observations from a re-analysis of the deposited data

How the results depend on the processing

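The number of the 8 genes called stayed within 1.5 times the main count in 178 of 198 alternative fits. These include every fit in which a main count of 0 stayed at 0. The share therefore says little about the comparisons that had calls. In control liver ILC1s against NK cells, 2 genes were called in the main fit (0.605% of tested genes in either direction), 5 by DESeq2 (3.08%), 5 by limma-voom (3.26%) and 4 without the filter (1.08%). The calls by DESeq2 and without the filter include Pdcd1, on 0, 0 and 122 counts in the ILC1s and 0 in each NK library. In control spleen ILC1s against liver NK cells the 2 (0.313%) became 5 by DESeq2 (2.4%) and 1 with the replicate number as a block (0.17%). The DESeq2 calls there also include Pdcd1, on 50, 26 and 0 counts in the ILC1s. For RARa403 liver ILC1s against NK cells the 3 (0.401%) became 0 with only the compared groups in the fit (0%). For RARa403 spleen ILC1s against liver NK cells the 2 (0.238%) became 0 with only the compared groups (0%) or the replicate block (0.0816%) and 1 with the opening number of the sample code as a term (0.156%). In liver NK cells DESeq2 called 1 gene (1.27%) between RARa403 and control and the main fit 0 (0%). Leaving out 1 library at a time gave 2 to 3 genes in control liver, 1 to 3 in control spleen, 0 to 4 in RARa403 liver and 0 to 2 in RARa403 spleen ILC1s against NK cells, and 0 in each of the other 8 comparisons. The cause of these changes was not tested, and the smaller fits also held fewer libraries. Of 1557 single-gene values, none reversed a call, 30 lost one and 30 gained one.

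Deviations of same-numbered libraries of the same genotype had correlations of 0.0163 to 0.124 over genes, all positive. Between genotypes the correlations were −0.0331 to 0.245. The labels do not say that a number marks an animal. Within each genotype, same-numbered libraries of the 3 populations were alike in Xist and in the numbers of their sample codes. Sharing of animals was therefore not settled. The replicate block ended the calls of Cd96 in RARa403 liver (adjusted p = 0.0758 by edgeR), Cd226 in RARa403 spleen (0.0985) and control spleen (0.0682), and Cd7 in RARa403 spleen (0.0516), all against NK cells. That block gives libraries of both genotypes with the same number a shared term. It therefore does not model animals shared within a genotype, which was not tested. With only the compared groups, the mean effect over the 3 populations is the main fit and was not run again. Depth limits Tigit, Lag3, Pdcd1 and Havcr2, with 1297, 633, 360 and 180 counts over all 18 libraries.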
